A study of Homo sapiens with 15 samples.

Results

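VHL, the hypoxia-inducible factor HIF1A, 2 of the enzymes that sense oxygen for it (EGLN1 and EGLN3) and 6 of its target genes (VEGFA, ADM, SLC2A1, LDHA, PGK1 and NDRG1) were described in cisplatin-resistant ovarian cancer cells. These 10 genes were chosen by name, for their place in the pathway, out of 47634 gene identifiers with counts. Earlier results of these data were known when the choice was made. Of the 10 genes, 8 passed the filter on low counts that left 11113 genes for testing, while EGLN3 and NDRG1 did not pass it. All samples were IGROV-CP20 cells, a human ovarian cancer line selected for resistance to cisplatin, the platinum drug that kills cells through DNA adducts. Since this is 1 cell line, the values describe that line only. The 5 conditions, with 3 biological replicates each, were an untreated control, a treatment with 50 µM cisplatin alone that lasted 24 h, and combinations in which 10 µM of Tranilast, Telmisartan or Amphotericin B preceded this cisplatin treatment by 24 h. Tranilast is an anti-allergic drug, Telmisartan blocks the angiotensin II receptor and Amphotericin B is an antifungal that binds membrane sterols. No condition received one of these drugs without cisplatin, and all drug combinations were compared with the same 3 libraries of cisplatin alone, so that these comparisons are not independent of each other.

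Under normal oxygen, prolyl hydroxylases of the EGLN family modify the HIF alpha subunits, and VHL then recognizes the modified subunit. VHL is the substrate-binding part of a ubiquitin ligase with elongin B (ELOB), elongin C (ELOC), cullin 2 (CUL2) and RBX1, which marks the subunit for destruction. When oxygen is low the alpha subunit escapes, pairs with ARNT and switches on genes for glycolysis, glucose uptake, blood vessel growth and survival. Most of this control acts on the HIF1A protein, which was not measured in these libraries, and the cells were not described as kept at low oxygen.

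HIF binds a short core sequence, ACGTG or GCGTG, that was searched on both strands (CACGT and CACGC on the other strand) in RefSeq promoter windows of GRCh38.p14, from 250 bases before to 50 bases after the gene start. Of 34943 promoters in the table, 48.4% held at least 1 core, so that a match by itself is common. Entries were found for 7 of the 10 genes, with 9 promoters between them, and 7 of these promoters, from 6 genes, held the core. No entry was matched for VHL, VEGFA and NDRG1. The following stretches of 30 bases are shown because they hold the core in the member promoters, with the core in capitals and the gene strand read 5′ to 3′. HIF1A lies at chr14:61695296-61695325 on the plus strand, EGLN1 at chr1:231422284-231422313 on the minus strand, and SLC2A1 at chr1:42958827-42958856 on the minus strand. The LDHA stretches lie at chr11:18394366-18394395 and chr11:18394470-18394499, the PGK1 stretch at chrX:78104029-78104058 and the ADM stretch at chr11:10304959-10304988, all on the plus strand.
HIF1A: ttggctgagagcgGCGTGggctggggtggg
EGLN1: ggggccgtggtgtACGTGcagagcgcgcag
SLC2A1: gtagcaacagcgaGCGTGccggtcgctagt
LDHA first: agactcccagcgCACGTGgagcagtctgcc
LDHA second: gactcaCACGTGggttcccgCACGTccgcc
PGK1: ggttcgcgGCGTGccggACGTGacaaacgg
ADM: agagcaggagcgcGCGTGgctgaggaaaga
LDHA, which encodes the enzyme that turns pyruvate into lactate, had 6 matches in its first promoter, where CACGTG is read as a match on each strand. PGK1, an ATP-producing enzyme of glycolysis, had 4 matches. HIF1A, EGLN1, SLC2A1 and ADM had 1 match each in the promoter shown, and the EGLN3 promoter had none. The stricter form ACGTG, on either strand, was in 21.4% of all promoters and in 3 of the 7 genes with an entry, namely EGLN1, LDHA and PGK1. A match is a feature of the letters only, and binding was not measured.

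The libraries were made by QuantSeq, a method that sequences the 3′ ends of polyadenylated transcripts, and total counts ranged from 1510620 to 3517041. At these depths a floor of 3 counts stood for 8.53e-05% to 0.000199% of a library. The epithelial markers EPCAM, KRT8, KRT18 and CDH1 had counts in all 15 libraries and KRT19 in 14 of 15, while PAX8, a marker of many ovarian carcinomas, had 1 count in total. CD3E and CDH5, which define T cells and endothelial cells, were at 0. PTPRC, which encodes the leukocyte protein CD45, had 5 to 296 counts and a mean of 69.98 ± 5.45 CPM in untreated cells against 7.05 ± 7.01 CPM with cisplatin (SD, n = 3), where CPM are read counts scaled to a library of fixed size with TMM factors. The part of this difference in any result was not tested. Mitochondrial ribosomal RNA took 1.79% to 2.20% of the counts in untreated cells and 2.10% to 2.53% with Tranilast. Its share was 13.7%, 5.61% and 3.41% in cisplatin replicates 1, 2 and 3, then 10.8%, 12.9% and 3.61% with Telmisartan, and 12.3% to 14.8% with Amphotericin B. The shares of untreated cells and of Tranilast thus lay below all shares of the other conditions. Where conditions without overlap are compared with this share as a covariate, share and treatment cannot be told apart. Cisplatin replicate 1 and Telmisartan replicate 3 stood apart from the other replicates of their condition, with chi-square values per degree of freedom of 26.4 to 44.1 against them, while all other pairs of replicates gave 2.24 to 8.07. Where leaving out one of these libraries changed a call, this is given for the members, but only for some of the pathway genes named.

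VHL had its lowest levels with Amphotericin B and cisplatin. Levels are listed from replicate 1 to replicate 3. VHL (ENSG00000134086, chr3:10141008-10152220 on GRCh38, plus strand) stood at 166, 159 and 163 CPM in untreated cells. With cisplatin alone VHL stood at 171, 269 and 246 CPM, and with Tranilast and cisplatin at 179, 182 and 170.2 CPM. With Telmisartan and cisplatin the VHL levels were 99.0, 101 and 214 CPM, and with Amphotericin B and cisplatin 78.9, 89.8 and 43.2 CPM. All 3 Amphotericin B libraries therefore lay below every other library, while the Telmisartan libraries were split, with replicate 3 within the range of cisplatin alone.

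Against cisplatin alone, VHL fell by 1.70 on the log2 scale with Amphotericin B (SE 0.293, adjusted p = 0.00404 by the quasi-likelihood test of edgeR), which is a 3.24-fold lower level. The same call was made under all 9 alternative settings and with each of the 15 libraries left out in turn. Without cisplatin replicate 1 the difference was -1.82 (adjusted p = 0.000166). Against untreated cells VHL fell by 1.21 with Amphotericin B (SE 0.290, adjusted p = 0.00336). This second call was lost when the mitochondrial ribosomal RNA share entered the fit as a covariate, with a difference of 0.08 (adjusted p = 0.906), and since the shares of these conditions do not overlap, share and treatment cannot be told apart there.

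The VHL difference between cisplatin and untreated cells was 0.49 on the log2 scale (SE 0.275, adjusted p = 0.153) and missed the threshold. With that share in the fit it was 1.25 (adjusted p = 4.96e-05), and without Telmisartan replicate 3 it was 0.49 (adjusted p = 0.0495). The shares of untreated cells and of cisplatin do not overlap either, so that share and treatment cannot be told apart in the fit with the share. In the libraries of cisplatin alone and of Telmisartan, the replicates with the highest VHL level were among those with the lower share of this RNA, and the part of that share in the VHL level was not tested. Telmisartan gave a difference of -0.72 against cisplatin (SE 0.277, adjusted p = 0.380), and without Telmisartan replicate 3 it was -1.20 (adjusted p = 0.135). With the share as a covariate VHL passed the threshold in this comparison, at -0.64 (adjusted p = 0.0350). Tranilast gave -0.37 against cisplatin (SE 0.274, adjusted p = 0.337), and here too VHL passed with the covariate, at -1.06 (adjusted p = 0.00110). The difference of Telmisartan from untreated cells missed the threshold (adjusted p = 0.558), but with the covariate it was 0.61 (adjusted p = 0.0496), and without Telmisartan replicate 3 it was -0.71 (adjusted p = 0.0230), in the opposite direction. For Tranilast against cisplatin and for Telmisartan against untreated cells the shares do not overlap. In both, the covariate values cannot tell share and treatment apart. In order of the mean, VHL stood at 229 ± 51.2 CPM with cisplatin, 177 ± 5.91 with Tranilast, 163 ± 3.67 in untreated cells, 138 ± 66.2 with Telmisartan and 70.7 ± 24.4 with Amphotericin B (SD, n = 3). No pair of neighbours in that order passed the threshold, the closest being Telmisartan and Amphotericin B (adjusted p = 0.117).

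**Figure D1:**
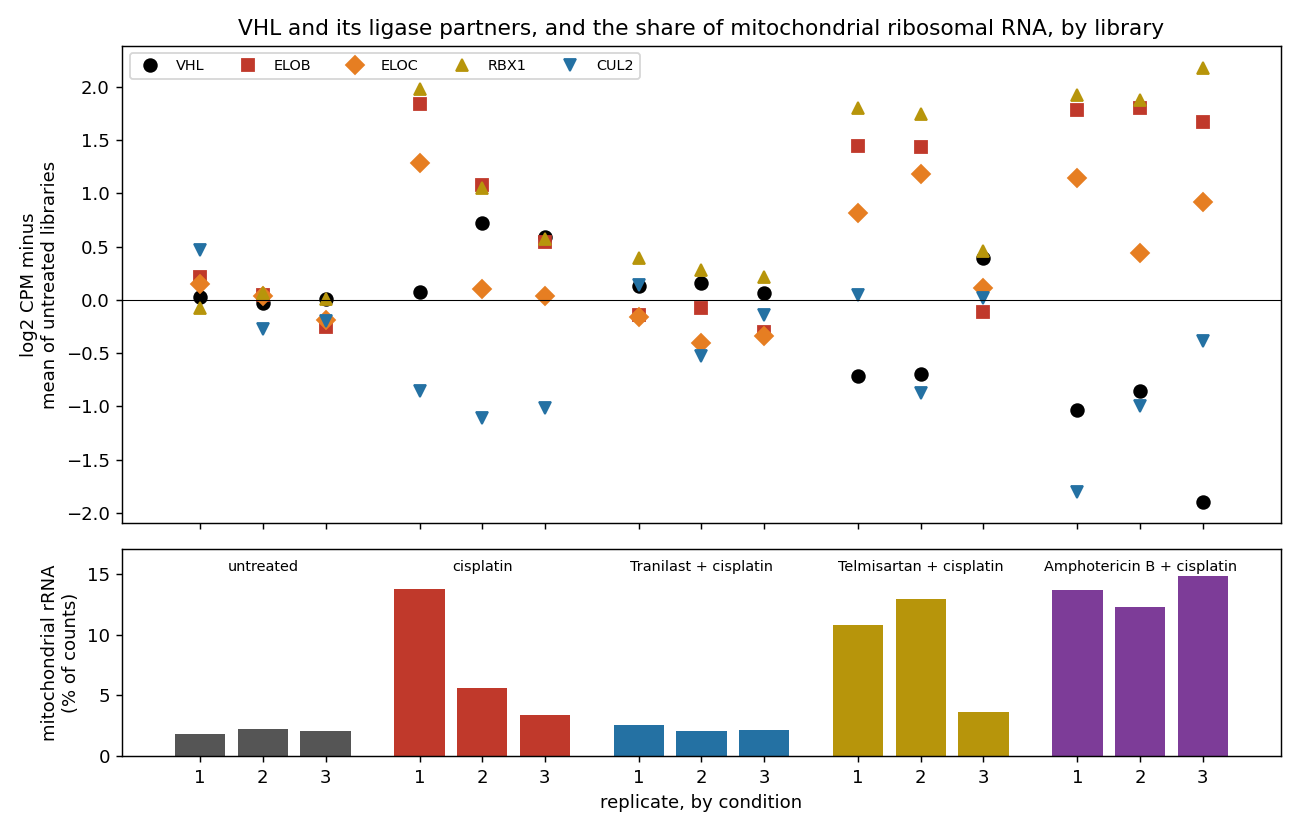
The upper panel plots, for each of the 15 libraries, the log2 CPM of VHL, ELOB, ELOC, RBX1 and CUL2 minus the mean of the 3 untreated libraries, and the lower panel plots the mitochondrial ribosomal RNA as a percentage of counts. VHL lies lowest in the Amphotericin B libraries, where ELOB and RBX1 lie high, and cisplatin replicate 1 and Telmisartan replicates 1 and 2 show the same high ELOB and RBX1 with a share above 10%.

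Of the 4 partners of VHL in the ligase, 1 fell and 2 rose with cisplatin, and 3 fell with Tranilast against cisplatin. Of all genes tested, 44.7% were called with cisplatin and 22.2% with Tranilast, the latter split into 11.6% lower and 10.5% higher. ELOB, the elongin that works with ELOC as the adaptor of the ligase, had 186, 165 and 135 CPM in untreated cells and 578, 339.9 and 234 CPM with cisplatin. RBX1, the RING subunit that recruits the ubiquitin-loaded enzyme, had 57.7, 63.9 and 61.4 CPM in untreated cells and 242, 127 and 91.0 CPM with cisplatin. In both genes cisplatin replicate 1, the library with the highest mitochondrial share of its condition, was also the highest. RBX1 rose by 1.33 on the log2 scale with cisplatin (SE 0.322, adjusted p = 0.00319) and ELOB by 1.24 (SE 0.332, adjusted p = 0.00607), while CUL2, the scaffold of the ligase, fell by 1.09 (SE 0.353, adjusted p = 0.0186). All 3 calls were lost with the share as a covariate, and that of CUL2 also without untreated replicate 1 or cisplatin replicate 2. With Tranilast, ELOB fell by 1.43 against cisplatin (SE 0.334, adjusted p = 0.00721), RBX1 by 1.03 (SE 0.319, adjusted p = 0.0282) and ELOC by 0.89 (SE 0.305, adjusted p = 0.0433), and these calls were lost with the same covariate. With a library left out in turn, the Tranilast calls were made in 15 of 15 fits for ELOB, 10 for RBX1 and 5 for ELOC. Without cisplatin replicate 1 the rises with cisplatin were smaller, at 0.82 for RBX1 (adjusted p = 0.0228) and 0.81 for ELOB (adjusted p = 0.0388). In that fit the Tranilast difference of ELOB was -0.99 (adjusted p = 0.0259), while those of RBX1 and ELOC, at -0.53 (adjusted p = 0.178) and -0.36 (adjusted p = 0.314), lost their calls. The differences of RBX1, ELOB and ELOC with Amphotericin B against cisplatin then passed the threshold, at 1.22 (adjusted p = 0.00380), 0.96 (adjusted p = 0.0262) and 0.84 (adjusted p = 0.0175). In that fit and comparison 1949 of 11332 genes tested were called lower and 1885 higher. With all 15 libraries, 0 of the 4 partners passed the threshold with Telmisartan or with Amphotericin B against cisplatin alone, with 1 of the 4 at an unadjusted p under 0.05 in each. Of all genes tested, 0% and 13.2% passed the threshold in these comparisons. At an unadjusted p under 0.05 there were 10.3% with Telmisartan and 3507 of 11113 genes with Amphotericin B. ELOB overlaps SRRM2 on the opposite strand, and since the use of strand in the counting is not given in the sources used here, reads of these genes cannot be told apart.

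HIF1A, the oxygen-regulated alpha subunit, was lower with cisplatin and higher again with Tranilast. HIF1A (ENSG00000100644, chr14:61695513-61748259 on GRCh38, plus strand) stood at 126, 136 and 120.4 CPM in untreated cells and at 60.5, 47.6 and 76.7 CPM with cisplatin. The levels were 98.6, 114 and 113 CPM with Tranilast, 79.6, 69.0 and 87.0 CPM with Telmisartan, and 88.2, 81.8 and 69.3 CPM with Amphotericin B. Every untreated library lay above all others, and every Tranilast library lay above all libraries of the other cisplatin treatments.

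HIF1A fell by 1.04 on the log2 scale with cisplatin against untreated cells (SE 0.186, adjusted p = 0.000286), a 2.06-fold lower level. With Tranilast it rose by 0.82 against cisplatin alone (SE 0.186, adjusted p = 0.00629), a 1.76-fold higher level, and the difference between Tranilast and untreated cells was -0.23 (SE 0.180, adjusted p = 0.515). Both calls were made in all 9 alternatives and in all 15 fits with a library left out. Without cisplatin replicate 1 the values were -1.04 and 0.81. Telmisartan and Amphotericin B gave differences of 0.35 (SE 0.188, adjusted p = 0.531) and 0.37 (SE 0.192, adjusted p = 0.196) from cisplatin alone. HIF1A was below untreated cells in both, by -0.69 with Telmisartan (SE 0.183, adjusted p = 0.00949) and -0.67 with Amphotericin B (SE 0.187, adjusted p = 0.00832), and both of these calls were lost with the mitochondrial share as a covariate. The call for Amphotericin B was also lost without its replicate 3 (adjusted p = 0.0518). Compared directly, HIF1A was 0.47 higher with Tranilast than with Telmisartan (SE 0.183, adjusted p = 0.141). It was 0.45 higher with Tranilast than with Amphotericin B (SE 0.187, adjusted p = 0.0686). Neither difference passed with the main settings. The first passed without Telmisartan replicate 3, and the second with library size only and without cisplatin replicate 3 or Telmisartan replicate 3.

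Of the other HIF subunits, ARNT, the partner of the alpha subunit, was tested. ARNT fell by 0.73 with cisplatin (SE 0.250, adjusted p = 0.0240), from 78.3 ± 6.85 CPM to 46.6 ± 17.8 CPM (SD, n = 3), a call that was lost with the mitochondrial share as a covariate and without untreated replicate 1 or 2 or cisplatin replicate 1 or 2. Without cisplatin replicate 1 the ARNT difference was -0.52 (adjusted p = 0.0718). The second alpha subunit EPAS1 had at most 3 counts in a library, ARNT2 at most 5, and HIF3A had 0 counts in 37292186, which allows a share of up to 8.04e-06%.

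EGLN1, the main HIF prolyl hydroxylase, was a low-count gene here, with 6 to 68 counts in a library. EGLN1 (chr1:231363751-231425044 on GRCh38, minus strand) had 10.2, 5.47 and 17.1 CPM in untreated cells, 5.60, 6.87 and 13.9 CPM with cisplatin, and 17.1, 11.2 and 15.3 CPM with Tranilast. It had 6.12, 6.63 and 14.0 CPM with Telmisartan and 4.98, 4.81 and 4.47 CPM with Amphotericin B. The Amphotericin B libraries, each with 6 or 7 counts, were the lowest of all, while untreated, cisplatin and Telmisartan libraries covered each other. EGLN1 passed the threshold in none of the comparisons with cisplatin alone or with untreated cells when all 15 libraries were fitted, the closest being Amphotericin B against untreated cells at -1.20 (adjusted p = 0.0674). That difference passed with library size only at -1.76 (adjusted p = 0.0215), with no filter on low counts at -1.32 (adjusted p = 0.0136) and with the replicate number as a block at -1.12 (adjusted p = 0.0383). It also passed without untreated replicate 2, cisplatin replicate 3 or Telmisartan replicate 3, with adjusted p of 0.0237, 0.0495 and 0.0439. EGLN3, a hydroxylase that HIF itself induces in many cells, had 3 counts in all 15 libraries together, and no level can be given. EGLN2, the third hydroxylase, rose by 0.79 with cisplatin (SE 0.287, adjusted p = 0.0332) and fell by 1.40 with Amphotericin B against cisplatin (SE 0.314, adjusted p = 0.0107). These EGLN2 calls were made in 11 and 12 of the 15 fits with a library left out, and the first was lost without untreated replicate 1 or 3 or cisplatin replicate 2 or 3, the second without cisplatin replicate 2 or 3 or Amphotericin B replicate 3. The second was also lost with the mitochondrial share as a covariate. When cisplatin replicate 1 was left out, EGLN2 was also called against cisplatin with Tranilast, at -0.78 (adjusted p = 0.00841), and with Telmisartan, at -0.81 (adjusted p = 0.0281). In that fit 1229 genes of 11332 were called lower and 1423 higher with Tranilast, and 244 and 301 with Telmisartan.

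**Figure D2:**
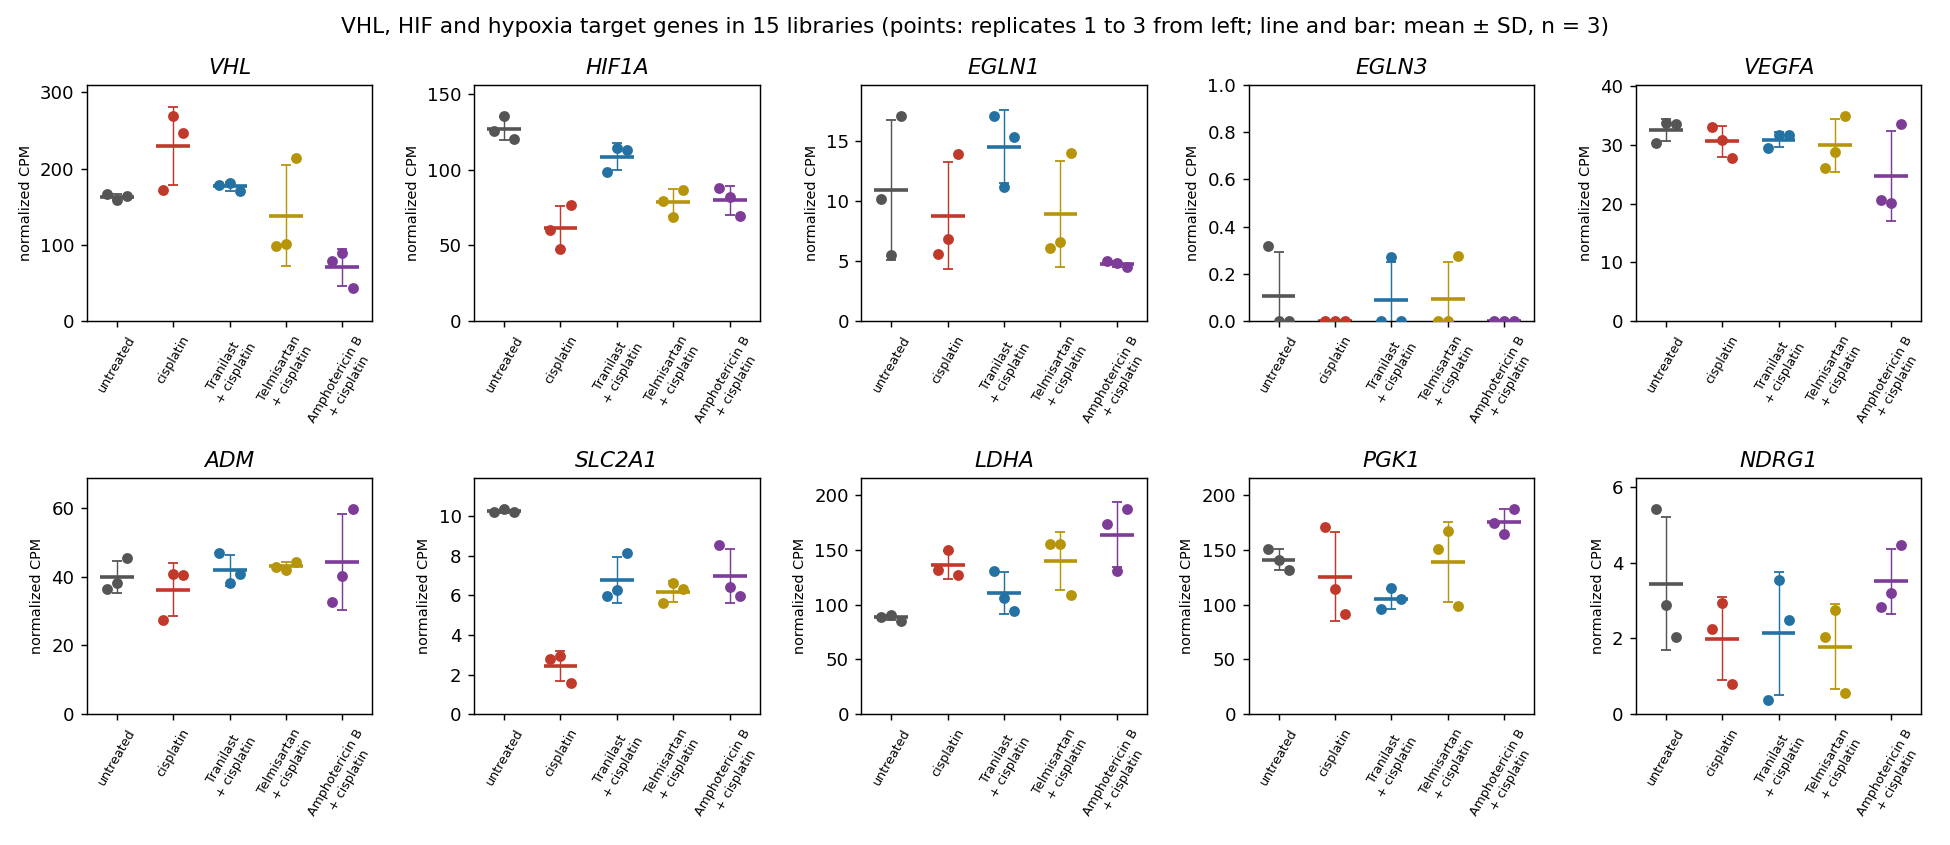
Normalized CPM of the 10 genes in the 15 libraries, with 1 panel per gene, points for replicates 1 to 3 from left to right, and the mean ± SD of 3 libraries as line and bar. HIF1A and SLC2A1 are lowest with cisplatin, VHL and EGLN1 with Amphotericin B, and the VEGFA and ADM libraries cover each other in most conditions.

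SLC2A1, the glucose transporter GLUT1, showed the largest difference with cisplatin among the 8 tested members. SLC2A1 (chr1:42925375-42959176 on GRCh38, minus strand) stood at 10.2, 10.4 and 10.2 CPM in untreated cells and at 2.80, 2.94 and 1.59 CPM with cisplatin. The levels were 5.95, 6.27 and 8.12 CPM with Tranilast, 5.61, 6.63 and 6.33 CPM with Telmisartan, and 8.53, 6.42 and 5.96 CPM with Amphotericin B. The cisplatin libraries lay below all others and the untreated libraries above all others, although the cisplatin values rest on only 4 to 6 counts a library.

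SLC2A1 fell by 2.08 on the log2 scale with cisplatin (SE 0.344, adjusted p = 0.000155), a 4.23-fold lower level. Against cisplatin alone it rose by 1.50 with Tranilast (SE 0.357, adjusted p = 0.00764) and by 1.53 with Amphotericin B (SE 0.398, adjusted p = 0.0197). The first 2 calls were made in every alternative and without each library in turn, with -2.21 and 1.63 without cisplatin replicate 1. The call for Amphotericin B was lost with no filter on low counts, with the mitochondrial share as a covariate (adjusted p = 0.0868), and without cisplatin replicate 2 or 3 or Amphotericin B replicate 1 (adjusted p up to 0.104). With library size only, SLC2A1 was also below untreated cells with Telmisartan at -0.96 (adjusted p = 0.0300) and with Amphotericin B at -1.11 (adjusted p = 0.0100). Telmisartan gave 1.36 against cisplatin (SE 0.375), a value close to those of the other drugs in size, but with an adjusted p of 0.294, in a comparison where edgeR called 0 of the 11113 genes. That 0 depended on the fit. Without cisplatin replicate 1 edgeR called 244 genes lower and 301 higher of 11332 in this comparison. With the mitochondrial share as a covariate it called 215 and 125, and DESeq2 called 26 and 4. SLC2A1 passed in none of these fits. Whether the drugs differ is given by their own comparisons. For SLC2A1 these were 0.14 for Tranilast against Telmisartan (SE 0.299, adjusted p = 0.816), -0.03 for Tranilast against Amphotericin B (SE 0.324, adjusted p = 0.981) and -0.17 for Telmisartan against Amphotericin B (SE 0.339, adjusted p = 0.788).

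LDHA was higher in all cisplatin libraries than in untreated ones. LDHA (chr11:18394388-18408425 on GRCh38, plus strand) stood at 88.9, 90.4 and 85.3 CPM in untreated cells and at 131, 150.1 and 127 CPM with cisplatin. It had 131, 106 and 93.7 CPM with Tranilast, 155, 155 and 109 CPM with Telmisartan, and 174, 131 and 187 CPM with Amphotericin B. The untreated libraries were the 3 lowest of the 15. LDHA rose by 0.62 with cisplatin (SE 0.192, adjusted p = 0.0139), by 0.66 with Telmisartan and cisplatin against untreated cells (SE 0.191, adjusted p = 0.0159) and by 0.89 with Amphotericin B and cisplatin (SE 0.193, adjusted p = 0.00163). All 3 calls were lost when libraries were scaled by size only and with the mitochondrial share as a covariate. The rise with cisplatin was also lost with no filter on low counts and without untreated replicate 3 or cisplatin replicate 2 (adjusted p up to 0.0615), and that with Telmisartan without untreated replicate 3 or Telmisartan replicate 1 or 2 (adjusted p up to 0.0702). The difference of Tranilast from untreated cells missed the threshold but passed in the fit of those 6 libraries, at 0.33 (adjusted p = 0.0163). No drug combination passed the threshold for LDHA against cisplatin alone.

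PGK1 (chrX:77910739-78129296 on GRCh38, plus strand) passed the threshold in no comparison with cisplatin alone or untreated cells in the fit of all 15 libraries with TMM scaling. PGK1 stood at 151, 140.1 and 132 CPM in untreated cells, 170.2, 114 and 91.7 CPM with cisplatin, and 95.6, 115 and 105 CPM with Tranilast. With Telmisartan it had 151, 167 and 98.3 CPM and with Amphotericin B 174, 164 and 187 CPM. Cisplatin replicate 1 and Telmisartan replicates 1 and 2, with shares of mitochondrial ribosomal RNA over 10%, were the high ones of their conditions. The difference of Amphotericin B from cisplatin was 0.49 (SE 0.223, adjusted p = 0.141), and without cisplatin replicate 1 it was 0.81 (adjusted p = 0.00694). The cisplatin difference of PGK1 passed with library size only at -0.58 (adjusted p = 0.0112) and with the mitochondrial covariate at -0.89 (adjusted p = 0.000542). Against untreated cells, PGK1 also passed with that covariate at -0.48 with Tranilast (adjusted p = 0.00820), -0.86 with Telmisartan (adjusted p = 0.00253) and -0.79 with Amphotericin B (adjusted p = 0.0376). Of these conditions only Tranilast has shares that overlap those of untreated cells. For the others, and for cisplatin alone, share and treatment cannot be told apart. In the fits of only the 6 libraries compared the PGK1 difference from untreated cells was -0.39 with Tranilast (adjusted p = 0.00194) and 0.50 with Amphotericin B (adjusted p = 0.00243), so that the direction with Amphotericin B depended on the fit.

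VEGFA, the vascular growth factor that is the best known HIF target, did not pass the threshold in any of the 10 comparisons with the main settings. VEGFA (chr6:43770184-43786487 on GRCh38, plus strand) stood at 30.3, 33.7 and 33.6 CPM in untreated cells, 33.0, 30.9 and 27.8 CPM with cisplatin, and 29.4, 31.6 and 31.6 CPM with Tranilast. It had 26.0, 28.7 and 35.0 CPM with Telmisartan and 20.6, 20.1 and 33.5 CPM with Amphotericin B. The highest library was 1.74 times the lowest, the smallest such ratio of the 8 tested members. Its differences from cisplatin were 0.02 with Tranilast (SE 0.209), -0.02 with Telmisartan (SE 0.214) and -0.30 with Amphotericin B (SE 0.228), with adjusted p of 0.960, 0.987 and 0.378. Amphotericin B against untreated cells passed with library size only at -0.96 (adjusted p = 0.0103) and without Amphotericin B replicate 3 at -0.65 (adjusted p = 0.0369), and Tranilast against Amphotericin B passed with library size only at 0.98 (adjusted p = 0.00911). Differences of the size of these errors were not detectable with 3 libraries a condition.

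ADM, which encodes the vasodilator peptide adrenomedullin, also passed the threshold in none of the 10 comparisons. ADM (chr11:10304680-10307397 on GRCh38, plus strand) ranged from 27.4 CPM in cisplatin replicate 1 to 59.6 CPM in Amphotericin B replicate 3, with a median of 40.6 CPM over the 15 libraries. Its difference with cisplatin was -0.13 (SE 0.220, adjusted p = 0.645). NDRG1, a growth-arrest gene induced under hypoxia, had 1 to 17 counts in a library and 0.37 to 5.42 CPM. Its counts were 17, 10 and 8 in untreated cells and 4, 6 and 2 with cisplatin, which is too few for the test as filtered.

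The counts of called members were read against those of all genes. With cisplatin against untreated cells 3 of the 8 tested members were called, where 44.7% of all genes tested were called. With Tranilast against cisplatin 2 of 8 were called against 22.2% of all genes, and with Amphotericin B against cisplatin 2 of 8 against 13.2%. With Telmisartan against cisplatin 0 of 8 were called against 0% of all genes, and at an unadjusted p under 0.05 there were 2 members, VHL and SLC2A1 (10.3% of all genes), with 0 calls among the members by DESeq2 and limma-voom. Against untreated cells, 0 of 8 were called with Tranilast (8.1% of all genes), 2 of 8 with Telmisartan (28.7%) and 3 of 8 with Amphotericin B (40.9%). Between the drugs, 0 of 8 were called for Tranilast against Telmisartan (2.34% of all genes), 4 of 8 for Tranilast against Amphotericin B (36%) and 0 of 8 for Telmisartan against Amphotericin B (0%). In this last comparison 1 of 8 had an unadjusted p under 0.05 (20.5% of all genes), namely VHL at 0.98 (SE 0.291, adjusted p = 0.117), which passed the threshold with no filter on low counts (adjusted p = 0.00110) and without cisplatin replicate 1 (adjusted p = 0.0388). Without Telmisartan replicate 3, Tranilast against Telmisartan gave calls for VHL at 0.83 (adjusted p = 0.0147), PGK1 at -0.59 (adjusted p = 0.0420) and HIF1A at 0.56 (adjusted p = 0.0493), where 24.4% of all genes tested in that fit were called. Non-overlapping libraries were common as well, and were found for 53.5% of all genes with cisplatin against untreated cells, 40.3% with Tranilast and 24.6% with Amphotericin B against cisplatin.

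**Figure D3:**
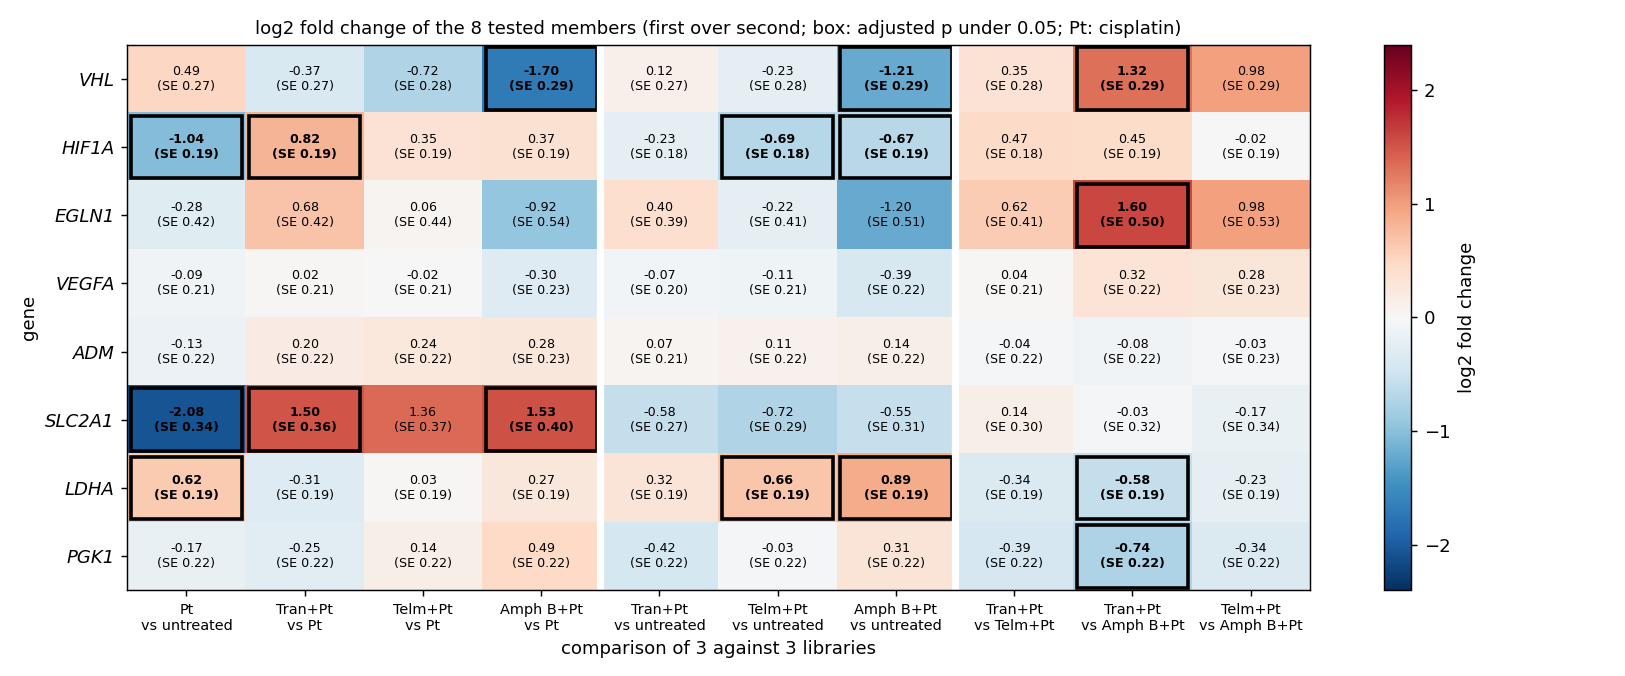
Log2 fold change (first condition over second) of the 8 tested genes in 10 comparisons of 3 against 3 libraries, with its SE in each cell and a box where the adjusted p is under 0.05. HIF1A and SLC2A1 are boxed in both of the first 2 columns, with opposite signs, VHL is boxed in the 3 comparisons of Amphotericin B with cisplatin, untreated cells and Tranilast, and VEGFA and ADM have no box.

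The wider pathway was read from 5 lists with 59 genes, of which 48 were tested. With cisplatin 18 of the 48 fell and 7 rose, where 23.6% of all genes fell and 21.1% rose. With Tranilast against cisplatin 4 fell and 8 rose, where 11.6% of all genes fell and 10.5% rose. With Telmisartan 0 of 48 were called (0% of all genes), with 4 at an unadjusted p under 0.05 (10.3% of all genes). With Amphotericin B 4 fell and 2 rose, where 9.01% of all genes fell and 4.21% rose, but the total of 6 became 23 without cisplatin replicate 1, 11 without Telmisartan replicate 3, and 0 without cisplatin replicate 2, cisplatin replicate 3 or Amphotericin B replicate 3. The calls over all genes moved as well, from 1001 lower and 468 higher of 11113 genes. They were 1949 and 1885 of 11332 without cisplatin replicate 1, and 1438 and 892 of 11328 without Telmisartan replicate 3. Without cisplatin replicate 2, cisplatin replicate 3 or Amphotericin B replicate 3 they were 163 and 46, 365 and 85, and 298 and 139. The median over the 48 genes was -0.09 with cisplatin, 0.28 with Tranilast, 0.14 with Telmisartan and 0.28 with Amphotericin B, beside -0.01, 0.02, 0.00 and -0.04 for all genes tested.

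Of 5 tested oxygen sensors and HIF cofactors, 2 fell and 1 rose with cisplatin, 2 rose with Tranilast and 1 fell with Amphotericin B. Of all genes tested, 23.6% fell and 21.1% rose with cisplatin, 10.5% rose with Tranilast and 9.01% fell with Amphotericin B. CREBBP, an acetyltransferase that HIF recruits, had 112, 101 and 97.8 CPM in untreated cells, 28.6, 28.9 and 40.9 CPM with cisplatin and 93.0, 76.9 and 85.8 CPM with Tranilast. It fell by 1.65 with cisplatin (SE 0.223, adjusted p = 2.89e-05) and rose by 1.37 with Tranilast against cisplatin (SE 0.223, adjusted p = 0.00163). CITED2, which competes with HIF for these cofactors, fell by 1.62 with cisplatin (SE 0.300, adjusted p = 0.000404) and rose by 0.88 with Tranilast (SE 0.301, adjusted p = 0.0426), the latter being called in 7 of the 15 fits with a library left out. Without cisplatin replicate 1 this CITED2 difference was 0.83 (adjusted p = 0.0693), while those of CREBBP were -1.58 and 1.29 with both calls kept.

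Among 17 tested glycolysis genes, 4 fell and 2 rose with cisplatin, 0 fell and 2 rose with Tranilast, and 2 fell and 2 rose with Amphotericin B. The shares of all genes were 23.6% lower and 21.1% higher with cisplatin, 11.6% and 10.5% with Tranilast, and 9.01% and 4.21% with Amphotericin B. HK2, the inducible hexokinase, had 17.9, 20.1 and 22.9 CPM in untreated cells, 8.96, 4.41 and 8.74 CPM with cisplatin and 16.4, 15.8 and 19.9 CPM with Tranilast. HK2 fell by 1.46 with cisplatin (SE 0.283, adjusted p = 0.000604) and rose by 1.23 with Tranilast (SE 0.285, adjusted p = 0.00688). PDK1, a kinase that inhibits pyruvate dehydrogenase, fell by 1.25 (SE 0.271, adjusted p = 0.00140) and rose by 0.79 (SE 0.275, adjusted p = 0.0459) in the same comparisons, the rise being called in 7 of the 15 fits with a library left out. With Amphotericin B the enzymes ENO1 and GAPDH rose by 1.08 (SE 0.300, adjusted p = 0.0268) and 1.08 (SE 0.334, adjusted p = 0.0413), and both calls were lost with the mitochondrial share as a covariate and in the fit of the 6 libraries alone. With a library left out, ENO1 was called in 11 and GAPDH in 4 of 15 fits.

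Among 21 other hypoxia targets tested, 10 fell and 2 rose with cisplatin, where 23.6% of all genes fell and 21.1% rose. PLOD1, a collagen lysyl hydroxylase, had 128, 111 and 110.5 CPM in untreated cells, 34.2, 28.0 and 28.6 CPM with cisplatin and 45.4, 68.1 and 58.9 CPM with Tranilast. P4HA1, a subunit of collagen prolyl hydroxylase, had 81.0, 62.7 and 73.1 CPM in untreated cells, 19.6, 11.3 and 14.7 CPM with cisplatin and 16.4, 19.6 and 21.2 CPM with Tranilast. PLOD1 fell by 1.95 with cisplatin (SE 0.204, adjusted p = 5.72e-06) and rose by 0.93 with Tranilast (SE 0.203, adjusted p = 0.00526). P4HA1 fell by 2.25 with cisplatin (SE 0.285, adjusted p = 1.81e-05), and its difference with Tranilast was 0.34 (SE 0.295, adjusted p = 0.416).

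With Tranilast, 1 of these 21 targets fell and 4 rose, where 11.6% of all genes fell and 10.5% rose. DDIT4, a stress-induced inhibitor of mTOR signalling, had 341, 301 and 334 CPM in untreated cells, 87.4, 37.8 and 150.1 CPM with cisplatin and 323, 345 and 335 CPM with Tranilast. DDIT4 rose by 1.86 with Tranilast (SE 0.363, adjusted p = 0.00321), and VLDLR, a lipoprotein receptor, by 2.85 (SE 0.552, adjusted p = 0.00310) from 0.94 ± 0.47 CPM (SD, n = 3). The VLDLR value rests on few reads, with 179 counts over all 15 libraries and at most 33 in a library. VLDLR also overlaps VLDLR-AS1, with 56 counts in total, on the opposite strand, and the use of strand in the counting is not given. With Amphotericin B 1 of the 21 was called, where 13.2% of all genes were called. This was HILPDA, a lipid droplet protein, which fell by 1.29 against cisplatin (SE 0.381, adjusted p = 0.0355) from 151 ± 89.5 CPM. This call was lost with the mitochondrial share as a covariate and without cisplatin replicate 2 or 3 or Amphotericin B replicate 1 or 3. With cisplatin replicate 1 left out, HILPDA was called against cisplatin with all drugs, at -0.97 with Tranilast (adjusted p = 0.00522), -1.05 with Telmisartan (adjusted p = 0.0153) and -1.67 with Amphotericin B (adjusted p = 8.69e-05). The classical targets CA9 and LOX had 0 counts and at most 1 count in a library.

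**Figure D4:**
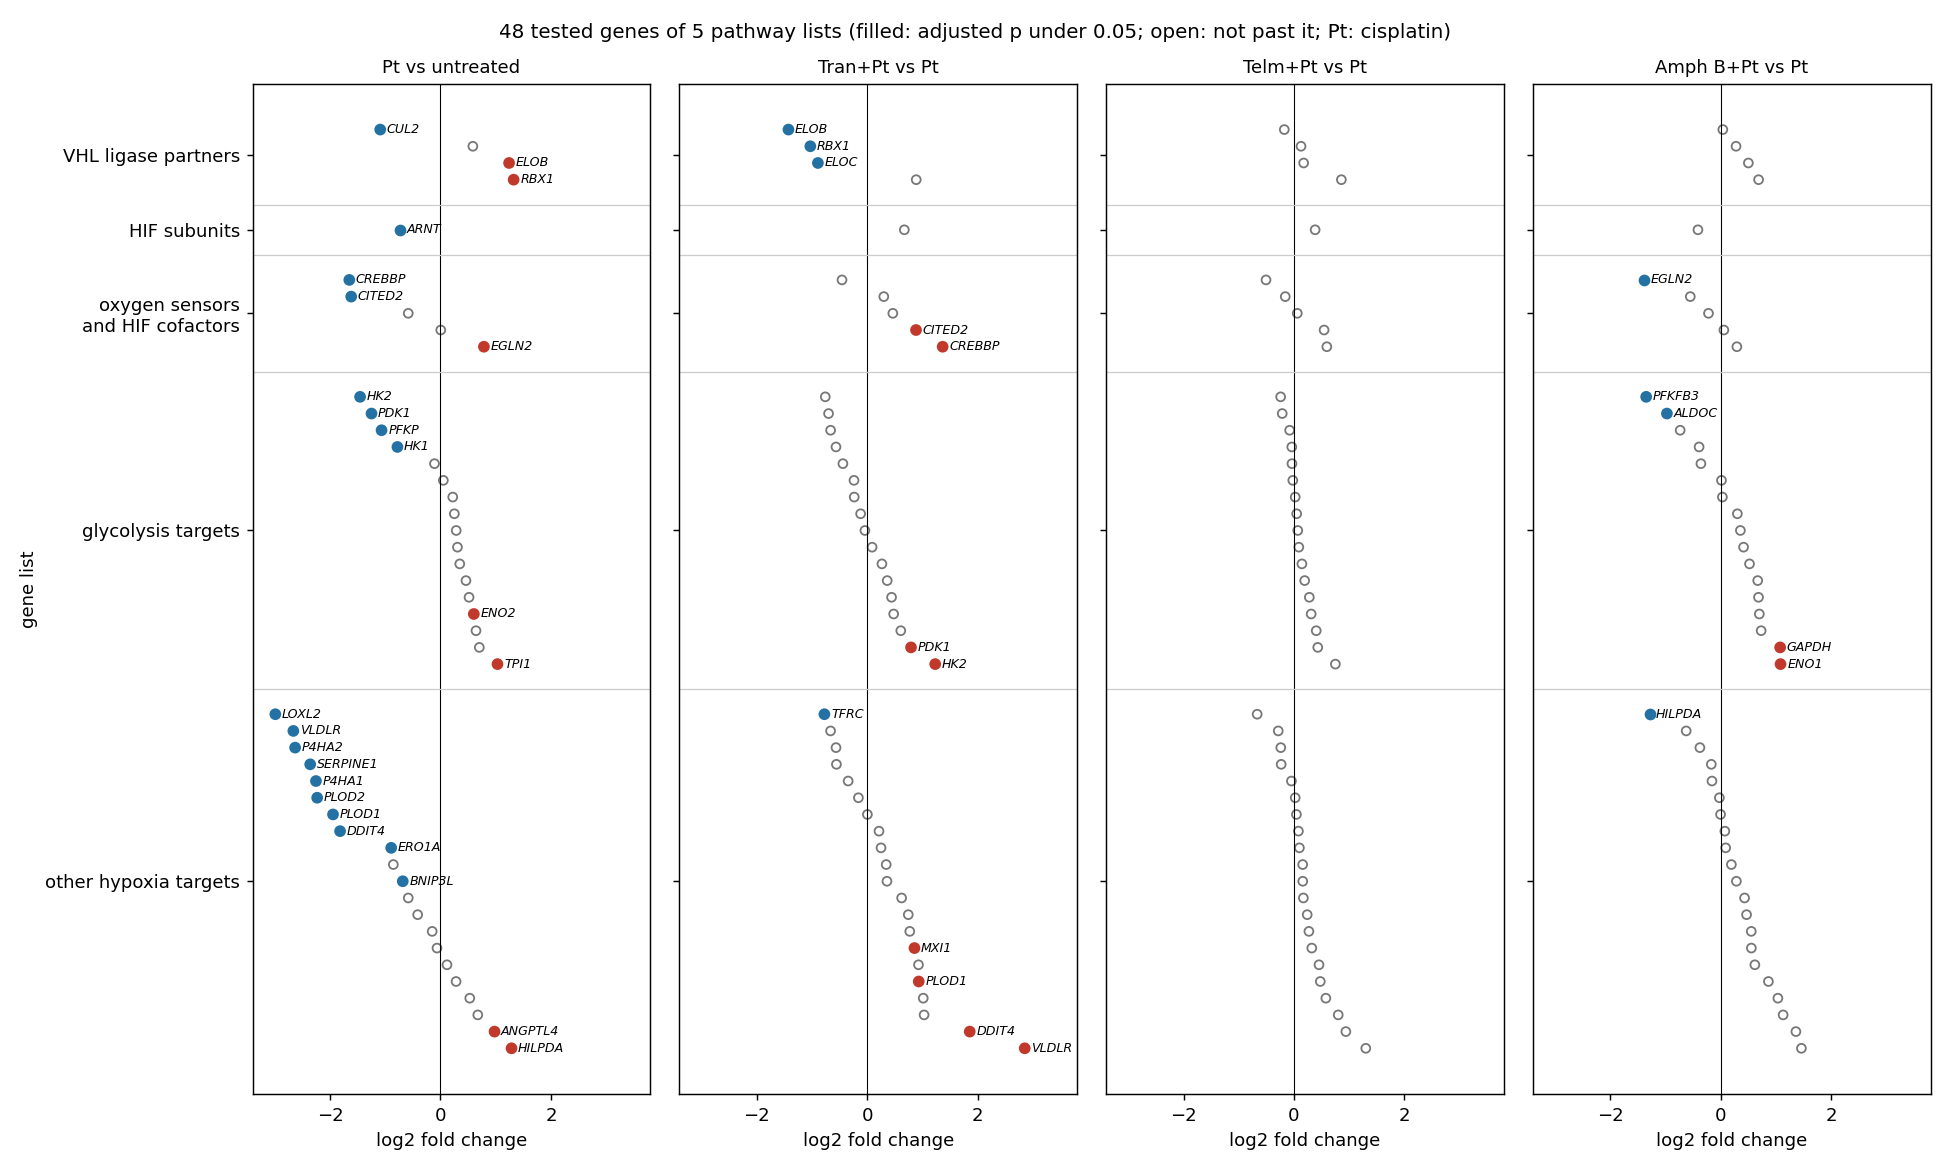
Log2 fold change of the 48 tested genes of the 5 pathway lists in the 4 main comparisons, sorted within each list, with filled and named points for an adjusted p under 0.05 (blue lower, red higher) and open points for the others. With cisplatin 18 points are blue and 7 red, with Tranilast 4 and 8, with Telmisartan no point is filled, and with Amphotericin B 4 are blue and 2 red.

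For Telmisartan against cisplatin, the study itself reported lower expression of genes of the response to hypoxia. It grouped 7 genes, VEGFA among them, under this term. Since it picked them from these samples, they are no independent evidence of their own direction. With Telmisartan against cisplatin 0 of the 7 were called, and 2 had an unadjusted p under 0.05 (10.3% of all genes). These were PMAIP1, a mediator of cell death, at -0.61 (SE 0.195, adjusted p = 0.315) and ANKRD1, a stress-responsive cofactor, at 0.55 (SE 0.215, adjusted p = 0.391). The values of the other genes were 0.48 for STC2, 0.17 for BBC3, -0.01 for MDM4, -0.02 for VEGFA and -0.26 for ZFP36L1. ANKRD1, STC2 and BBC3 were thus above 0 in this fit, and the others below it, with none called in either direction. With Tranilast 2 of the 7 fell and 3 rose, where 11.6% of all genes fell and 10.5% rose. With Amphotericin B 1 of the 7 fell, where 9.01% of all genes fell, namely PMAIP1, by 1.09 (SE 0.208, adjusted p = 0.00537).

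The genes whose pattern over the 15 libraries was most like that of VHL, by the root mean square difference of centred log2 CPM among 8546 genes, were TTPAL (0.18), ZKSCAN1 (0.21) and CHTF8 (0.23), where the median gene was at 0.76. Each had its lowest mean with Amphotericin B and its highest with cisplatin, as in VHL. Since the genes were picked for this likeness in these libraries, the shared order is no separate result. For VEGFA the nearest were MPHOSPH8 (0.13), PXN (0.14) and CSNK2A2 (0.15), with a median of 0.49, and since VEGFA varied little, such likeness is to other genes that varied little. All the patterns compared share the same 15 libraries.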

How the data were processed

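Gene expression was measured by QuantSeq 3′ mRNA sequencing in 15 libraries, 3 biological replicates for each of 5 conditions, and groups came from the sample labels. The authors deposited 1 table per library, with unnormalized counts of reads for each Ensembl gene identifier. The submitters' processing notes name STAR 2.3.0, HTSeq and hg19, while the annotation and use of strand are not given in the sources used here. Of 47634 identifiers, 45776 were matched in GENCODE 29, which gave names and the GRCh38 positions. The positions were not used with reads.

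Counts were tested with edgeR 4.0.16 in R 4.3.3 by the quasi-likelihood test, after filterByExpr and TMM scaling, in one fit of all 15 libraries with a term per condition. The p-values were adjusted by Benjamini and Hochberg within each comparison over 11113 genes, with a threshold of 0.05, and log2 CPM used a prior count of 2. Standard errors (SE) were derived from the F statistic of the fit. Alternatives used DESeq2 1.42.0 and limma 3.58.1. The procedure was tested on simulated data. Summaries used Python 3.11.15 with pandas 2.3.3. Intervals and floors cover counting error only. The labels call the replicates biological without naming separate cultures, so that p-values measure the spread between these samples, which may be technical.

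Named genes were the 10 members, the 2 genes with the smallest adjusted p among those called from each pathway list and comparison, the genes of the study's hypoxia term, and the 3 genes with patterns most like VHL and VEGFA. EPAS1, HIF3A, ARNT2, CA9, LOX, ELOC and CUL2, and EGLN2 with cisplatin, were named beside these to complete a complex or family. The members and lists were chosen with earlier results of these data known.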

Additional observations from a re-analysis of the deposited data

Results flagged for a closer look

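The 4 results flagged are members that differed between the Tranilast and the Amphotericin B conditions by the edgeR test of that difference, each drug being combined with cisplatin. VHL was higher with Tranilast by 1.32 on the log2 scale (SE 0.290, adjusted p = 0.00293), and EGLN1 by 1.60 (SE 0.501, adjusted p = 0.0200) on 6 to 68 counts a library. PGK1 was lower with Tranilast, at -0.74 (SE 0.222, adjusted p = 0.0163), and so was LDHA, at -0.58 (SE 0.192, adjusted p = 0.0269). All 3 Tranilast libraries of VHL and EGLN1 lay above the 3 Amphotericin B libraries, and those of PGK1 below them, while the LDHA libraries overlapped. Mitochondrial ribosomal RNA took 2.10% to 2.53% of the counts in one condition and 12.3% to 14.8% in the other. With that share as a covariate all 4 calls were lost, with values of 0.11 for VHL, -0.00066 for EGLN1, 0.31 for PGK1 and -0.12 for LDHA, and since the shares do not overlap, share and treatment cannot be told apart. Of the 9 alternative settings, VHL was called in 8, PGK1 and EGLN1 in 7 each and LDHA in 5. Scaling by library size only gave -0.078 for PGK1 and 0.090 for LDHA, limma-voom gave 1.48 for EGLN1 (adjusted p = 0.0556), and the LDHA call was also lost with no filter on low counts and with CPM above 1 in at least 3 libraries. With a library left out in turn, VHL was called in 15 of 15 fits, PGK1 and EGLN1 in 12 each and LDHA in 11. The PGK1 call was lost without Tranilast replicate 1 or 3 or Amphotericin B replicate 3, that of EGLN1 without Tranilast replicate 1 or Amphotericin B replicate 1 or 3, and that of LDHA without Tranilast replicate 2 or 3 or Amphotericin B replicate 1 or 3.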

How the results depend on the processing

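Of 383 alternative values of the 16 member differences called in the 10 comparisons, 343 kept their direction and call, 36 lost the call and 4 changed sign. Of 599 values of the 25 uncalled differences in the 4 main comparisons, 559 kept both, 7 passed the threshold and 33 changed sign. The cause of the changes below was not tested. With the mitochondrial ribosomal RNA share as a covariate 1 member, VHL, was called with Telmisartan, 1 with Amphotericin B and 4 in place of 9 in the 6 other pairs of conditions, as were 2 pathway genes with Telmisartan, 0 with Amphotericin B and 1 gene of the study's hypoxia term with Telmisartan. With no filter beyond 1 count, and in the fit of only the 6 libraries, where SLC2A1 was not tested, 1 member was called with Amphotericin B. The fit of 6 libraries called 7 pathway genes with Tranilast in place of 12, and 0 with Amphotericin B in place of 6, where limma-voom called 3. With each library left out in turn, Amphotericin B gave 1 to 3 members and 0 to 23 pathway genes, Tranilast gave 6 to 18 pathway genes, Telmisartan 0 to 2, and the 6 other pairs of conditions 6 to 15 members. The lowest of these for Tranilast was without its replicate 3 and the highest without Telmisartan replicate 3, which also gave the 15 members. The 2 pathway genes for Telmisartan came without cisplatin replicate 1, where 244 of 11332 genes were called lower and 301 higher.

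The 4 called differences that changed sign were in other pairs of conditions. The mitochondrial covariate gave 0.078 for VHL with Amphotericin B against untreated cells, and -0.00066 for EGLN1 and 0.31 for PGK1 with Tranilast against Amphotericin B, where library size only gave 0.090 for LDHA. In the 4 main comparisons the differences that changed sign were uncalled. Scaling by library size only gave 0.042 for VHL, 0.14 for LDHA and 0.25 for PGK1 with Tranilast and 0.12 for VEGFA with Telmisartan. The mitochondrial covariate gave 0.61 for EGLN1 and 0.038 for ADM with cisplatin, -0.13 for EGLN1, -0.017 for VEGFA and 0.40 for PGK1 with Tranilast, and 0.00073 for VEGFA and -0.043 for LDHA with Telmisartan. For VEGFA, RLE factors and DESeq2 gave -0.040 and -0.035 with Tranilast, and the filters of 1 count and of CPM above 1 in at least 3 libraries gave 0.026 and 0.021 with Telmisartan. With each library left out in turn, the cisplatin differences ran from -0.81 to 0.20 for EGLN1, -0.47 to 0.0093 for PGK1 and -0.23 to 0.0083 for ADM. Those with Tranilast ran from -0.041 to 0.091 for VEGFA and -0.43 to 0.045 for PGK1, and those with Telmisartan from -0.51 to 0.59 for EGLN1, -0.16 to 0.081 for VEGFA, -0.046 to 0.19 for LDHA and -0.040 to 0.46 for PGK1.

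Equal replicate numbers did not deviate together in every pair (correlations from -0.23 to 0.63). Telmisartan and cisplatin replicates 1 and 3 correlated at 0.31 and 0.63 but replicates 2 at -0.17, and the numbers were not taken as pairs. With the replicate number as a block 3, 2, 0 and 2 members were called in the 4 main comparisons and 10 in the other pairs, with 26, 14, 0 and 6 pathway genes, and 0 genes of the hypoxia term. Scaling by library size only moved the median of all genes from -0.01 to -0.36 with cisplatin, from 0.02 to 0.46 with Tranilast, from 0.00 to 0.11 with Telmisartan and from -0.04 to -0.25 with Amphotericin B, and the lower and higher calls from 2622 and 2345 to 3351 and 1019, from 1293 and 1169 to 397 and 2582, and from 1001 and 468 to 850 and 242 in the cisplatin, Tranilast and Amphotericin B comparisons. Genes with few counts, such as SLC2A1 with cisplatin, EGLN1 and NDRG1, are limited by depth.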
